A study of Mus musculus with 6 samples.

Results

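Cytosolic ribosomal protein genes encode the proteins of the small and the large subunit of the ribosome outside mitochondria. They were taken by gene symbol: Rps or Rpl with a number and at most 1 further letter (a, l, x or y), plus Rpsa, Rplp0, Rplp1 and Rplp2. S6 kinase genes, pseudogenes and mitochondrial ribosomal protein genes were left out. The rule found 46 of the 18193 genes that had a probe set of their own, meaning 1 annotated with a single gene symbol. It used no measured level to choose genes, but where a gene had several such probe sets it kept the set with the highest mean over all arrays. Of the 46 genes, 42 reached the filter on dim values (a mean log2 value of 4.97) and were tested among 13090 genes. Rpl3l, Rpl39l, Rps16 and Rps4l lay below it. Rps4l fits the symbol rule but is a transcribed pseudogene in RefSeq, and it entered no count of tested genes. The RefSeq gene table has 81 protein-coding genes that fit the symbol rule. Of these, 45 had a probe set of their own, and the others, among them Rplp1, Rpl5, Rpl10l and Rps27a, were not analysed here.

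The cells were MVT1, a mouse mammary tumour line that metastasises, tagged with green fluorescent protein (GFP). FVB/N mice, the strain syngeneic with the line, received the cells through a vein. GFP-positive cells were later sorted from the lungs, and their total RNA was hybridised to Affymetrix expression arrays of the mouse genome. There were 3 groups of 2 arrays: vehicle at 1 week after injection, vehicle at 2 weeks, and GW2580 at 2 weeks. GW2580, an inhibitor of the kinase of the CSF1 receptor, was gavaged daily at 160 mg per kg from 1 week on. The other mice were given vehicle from the same time. As dosing began at 1 week, the vehicle groups also differed in the length of gavage, which cannot be told apart from time. Every group carried the same GFP-tagged line. Each vehicle group came from 2 mice per the design text. For the GW2580 arrays the number of mice is not stated in those sources, and p-values may there measure technical spread.

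A ribosome holds a single copy of almost every ribosomal protein, and growing cells spend much of their transcription and translation on making them. The small subunit binds the mRNA and reads it, and the large subunit joins the amino acids and carries the stalk, which recruits translation factors. Transcripts of these genes usually begin with a run of C and T bases, the terminal oligopyrimidine (TOP) tract, through which the kinase complex mTORC1 controls their translation. Some members also act outside the ribosome, for example Rpl11, whose protein binds Mdm2 and so restrains the breakdown of p53.

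The values were log2 expression values, and each level below is on that scale. Array medians lay between 5.57 and 5.63 and array maxima between 14.6 and 14.7. Of the 42 tested ribosomal protein genes, 33 had a mean of 13 or more, near the top of the scale, and the means of the 42 ran from 8.01 to 14.4. Levels of different genes come from different probes and were not compared with each other. The labelled epithelial cell type was partly borne out by its markers. Krt8 and Krt18, keratins of simple epithelia, read 13.5 to 13.8 and 12.9 to 13.4, and Epcam, an adhesion molecule of epithelia, read 6.85 to 7.31. The junction genes Cdh1, Cldn4 and Cldn7 lay below the filter. From 1 to 2 weeks under vehicle, 0 of the 7 tested markers of this epithelium were above 0 (52.9% of all genes tested), with a median of -0.23. In 5 of them both 2-week arrays lay below both 1-week arrays (25.2% of all genes). Under GW2580 against vehicle 4 of the 7 were above 0, with a median of 0.01. In sorted bulk samples, fewer cells of a type and less RNA per cell cannot be told apart. Quantile normalisation also made the arrays alike in distribution, and it hides any change that most genes have in common.

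Sequences around the annotated start sites are shown because transcripts of these genes usually begin with a TOP tract. RefSeq promoters (GRCm38.p6, 250 bases before to 50 after the annotated start) were found for 37 of the 42 tested genes. A run of at least 8 bases of C or T overlapped the 100 bases centred on the start in 33 of the 37 (89.2%). The share over all 27025 genes with a promoter was 41.4%. The median longest run was 11 bases, against 7 over all these genes. Where a gene had several promoters, its longest run was taken, and a motif in any of them counted. Each stretch below has 30 bases and its longest run in capitals. The first 3 belong to the genes that were called at 2 weeks, the fourth to the gene with the lowest difference against 1 week in both 2-week groups, and the last 2 to genes that differed least.
Rpl37, chr15:5116631-5116660, plus strand: ggcgggggtgCTTTCTCTTCCggtctcttt
Rps25, chr9:44407684-44407713, plus strand: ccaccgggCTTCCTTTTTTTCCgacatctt
Rpl12, chr2:32961732-32961761, plus strand: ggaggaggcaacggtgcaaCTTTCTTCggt
Rpl27a, chr7:109519186-109519215, plus strand: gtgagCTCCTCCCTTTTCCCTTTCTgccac
Rps2, chr17:24720083-24720112, plus strand: aaattgtcccttccgcggcgCCTCCCTCTT
Rpl41, chr10:128549119-128549148, minus strand: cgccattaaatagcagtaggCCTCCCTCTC
The runs of these 6 genes had 11, 14, 8, 20, 10 and 10 bases in that order, and those of Rps2 and Rpl41 reached the end of the window. Counted from the annotated start, they lay at 29 to 39, -22 to -9, 40 to 47, -4 to 16, 41 to 50 and 41 to 50. Only the run of Rpl27a covered that start. Annotated starts may not be exact, and whether a run is the TOP tract was not tested. The called genes (8 to 14 bases) and the genes that differed least (10) were not set apart by run length. CTTTCC, searched on the gene's own strand in the same 100 bases, was in 11 of the 37 (29.7%, against 5.43% of all genes). As CTTTCC holds only C and T, each match is part of a C and T run, so this share is not separate from the run counts. CCGGAAG, the core bound by ETS-family factors, was in 19 of the 37 over the whole 300 bases on either strand (51.4%, against 9.93%). Its reverse complement, CTTCCGG, can overlap a C and T run. AAGATGGC, a core of the YY1 motif, was in 3 of the 37 on either strand (8.11%, against 3.19%). A match describes the letters only.

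At 2 weeks under vehicle, almost all ribosomal protein genes read slightly higher than at 1 week. The difference was above 0 in 40 of the 42 (52.9% of all genes tested). The median difference was 0.19, a 1.14-fold higher level, against 0.02 for all genes tested. In 36 of the 42 both 2-week arrays lay above both 1-week arrays (85.7%, against 31.5% of all genes), and in 1, Rps2, both lay below (25.2% of all genes). Few of these small differences passed the test. By limma with Benjamini-Hochberg adjustment over all 13090 genes, 3 rose at an adjusted p under 0.05 (7.14%, against 3.74% of all genes) and 0 fell (2.71%). At an unadjusted p under 0.05 there were 6 higher (14.3%, against 14.1%) and 0 lower (9.45%). The share past this threshold was thus close to the background for higher genes and below it for lower ones.

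**Figure D1:**
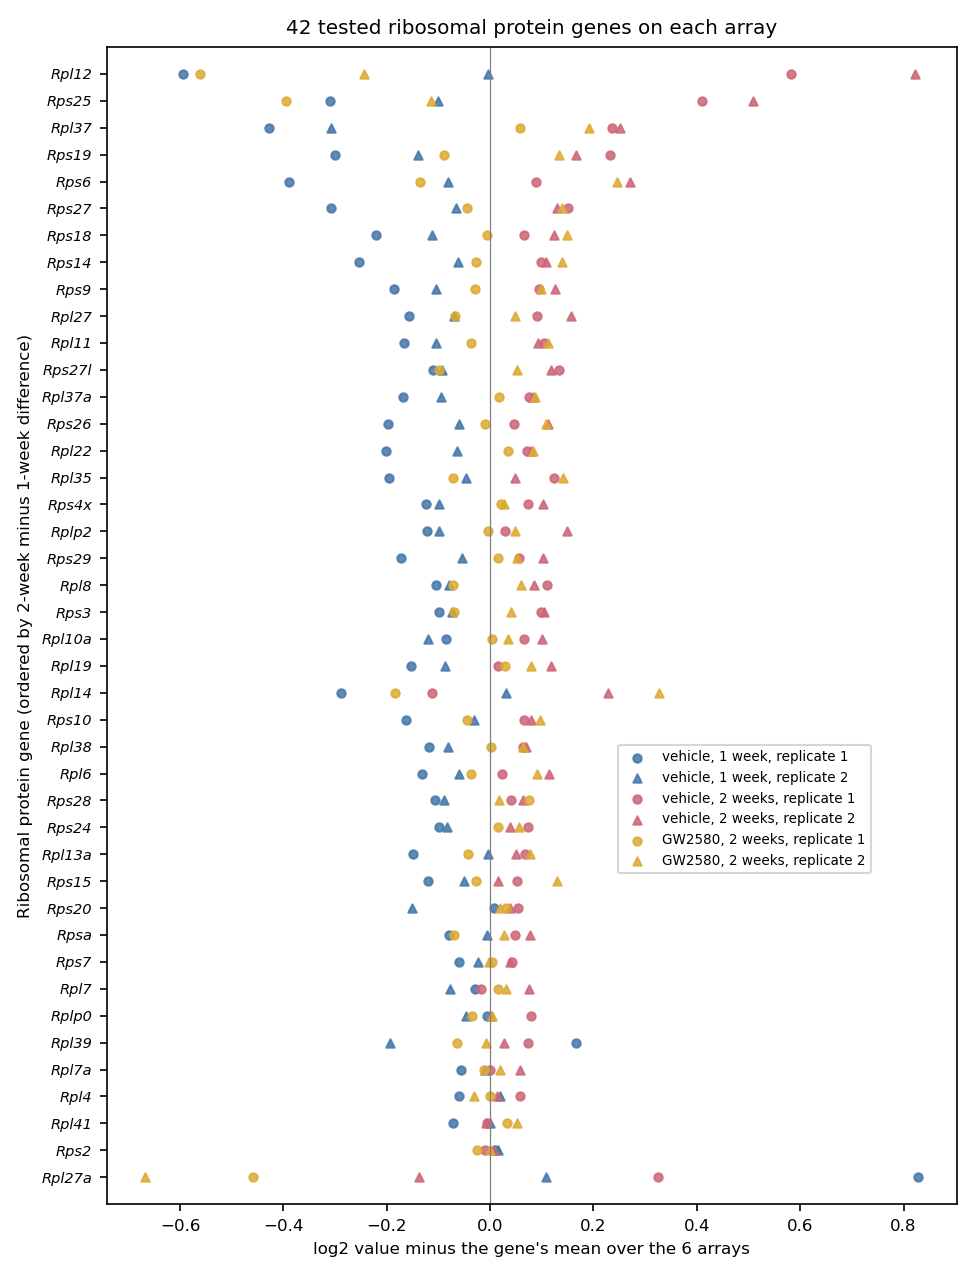
Values of the 42 tested ribosomal protein genes on each of the 6 arrays, as the log2 value minus the gene's mean over the arrays (horizontal axis), with genes in the order of the 2-week minus 1-week difference under vehicle (vertical axis). Colours are groups and marker shapes are replicates; both 2-week vehicle arrays lie above both 1-week arrays for 36 genes, and 34 genes have their lowest value on replicate 1 of the 1-week group.

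The 3 genes that rose encode a small subunit protein and 2 large subunit proteins. Rps25, a small subunit protein needed for initiation at some viral internal entry sites, read 9.04 and 9.25 at 1 week, 9.76 and 9.86 at 2 weeks, and 8.96 and 9.24 under GW2580. Both 2-week vehicle arrays stood above the other 4, and Rps25 rose by 0.66 (SE 0.15, 1.59-fold, limma adjusted p 0.0411). Rpl12, a large subunit protein at the base of the stalk, read 8.82 and 9.41 at 1 week, 10.00 and 10.24 at 2 weeks, and 8.85 and 9.17 under GW2580. The 2-week vehicle arrays again stood above the other 4, and Rpl12 rose by 1.00 (SE 0.21, 2.00-fold, limma adjusted p 0.0372). Rpl37, a zinc-binding large subunit protein, read 11.26 and 11.38, then 11.92 and 11.93, and 11.74 and 11.87 under GW2580. Here all 4 arrays of the later time lay above both 1-week arrays. Rpl37 rose by 0.61 (SE 0.12, 1.53-fold, limma adjusted p 0.0348).

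The calls depended on every vehicle array. The size of the called genes' differences also changed with the array left out, most for Rpl12 and least for Rpl37, but their direction did not. With an array left out, the lone array of its group is assumed to vary like the others. Without replicate 1 of the 1-week group, or either 2-week vehicle array, 0 of the genes were called. When replicate 2 of the 1-week group was dropped, 1 was called, Rpl12. Over these fits the difference was 0.71 to 1.30 for Rpl12, 0.56 to 0.77 for Rps25 and 0.55 to 0.67 for Rpl37. The median difference was 0.15 to 0.21 when each array was left out in turn, and 39 or 40 genes were then above 0.

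**Figure D2:**
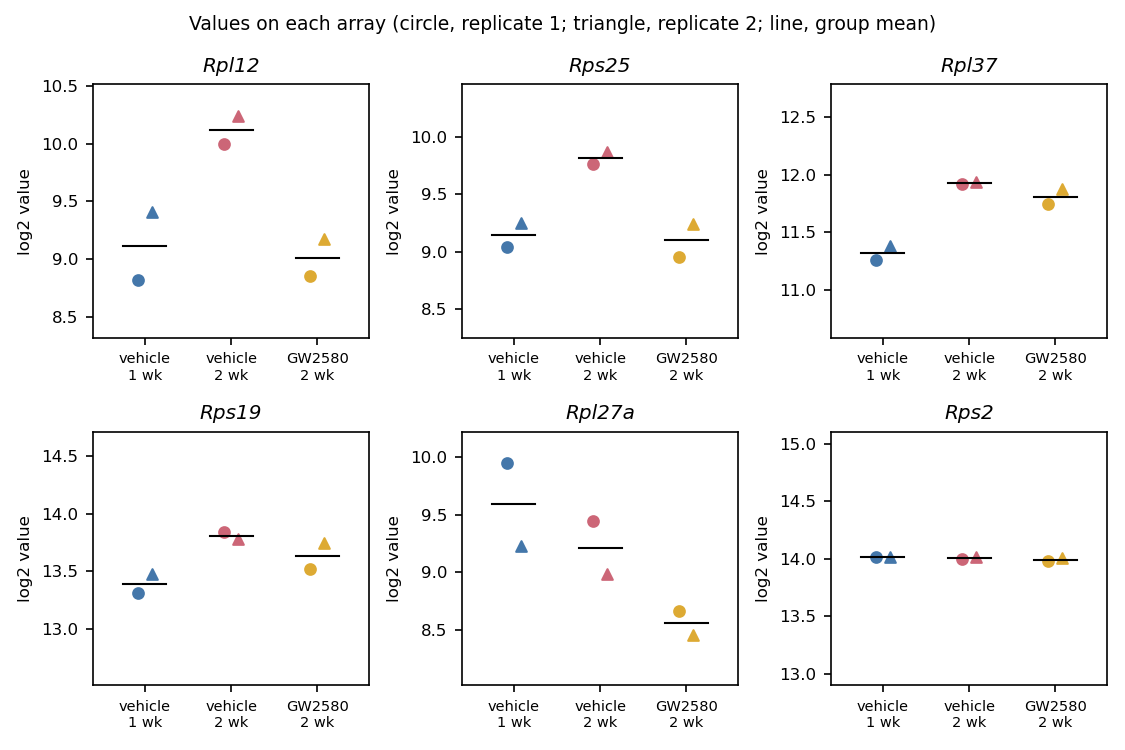
Log2 values (vertical axes, which differ in their centre but not in their span) of 6 ribosomal protein genes on each array of the 3 groups, with circles for replicate 1, triangles for replicate 2 and a line at the group mean. Rpl12 and Rps25 are high on the 2 vehicle arrays at 2 weeks, Rpl37 and Rps19 are low at 1 week, Rpl27a is low under GW2580, and Rps2 lies between 13.98 and 14.02 on all arrays.

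Among the small subunit genes the median difference from 1 to 2 weeks was 0.19 over 19 genes, and 18 of them were higher without overlap. Rps19, a protein of small subunit maturation whose loss causes Diamond-Blackfan anaemia in people, read 13.31 and 13.47 at 1 week and 13.85 and 13.78 at 2 weeks. The groups did not overlap, but the difference of 0.42 (SE 0.14) did not pass (limma adjusted p 0.110). With trend and robust settings of eBayes it was called (adjusted p 0.0277). Rps6, the protein phosphorylated by the S6 kinases, read 9.88 and 10.19, then 10.36 and 10.54, a difference of 0.42 with adjusted p 0.200 in limma. With the mean of its probe sets, which include a dim one, the difference was 1.06 and was called (limma adjusted p 0.0174). For Rps27, a zinc-finger protein of the small subunit, the difference was 0.33 (limma adjusted p 0.208). Rpsa, the small subunit protein also known as the laminin receptor, differed by 0.11 from levels of 13.91 and 13.99. Its 2-week arrays, at 14.04 and 14.07, lay above these. Rps2, which lines the mRNA entry of the small subunit, read 14.01 and 14.02, then 13.99 and 14.01, a difference of -0.013 (limma adjusted p 0.968).

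The large subunit and stalk genes gave a median of 0.19 over 22 genes, of which 17 were higher without overlap. Rpl11 read 13.15 and 13.21 at 1 week and 13.42 and 13.41 at 2 weeks, a difference of 0.23 (limma adjusted p 0.302). The stalk gene Rplp0, whose protein anchors the stalk on the ribosome, read 14.20 and 14.16, then 14.28 and 14.20, and differed by 0.07. For its partner Rplp2 the values were 13.93 and 13.95, then 14.08 and 14.20, and the difference was 0.20. Neither stalk gene was called. The 5 tested genes that overlapped between the times were all of the large subunit: Rpl14, Rpl27a, Rpl39, Rpl4 and Rpl41 (Rpl14 was named after its values were seen). Rpl4 and Rpl39, which line the exit tunnel of the new chain, differed by 0.06 each, Rpl7a by 0.06 and Rpl41, a very short basic protein, by 0.03. Rpl27a went the other way, with 9.95 and 9.23 at 1 week and 9.45 and 8.99 at 2 weeks. Its arrays of a group stood far apart and the groups overlapped, and the difference of -0.37 (SE 0.25) did not pass (limma adjusted p 0.422).

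Rps27l is a paralogue of Rps27 that p53 can induce. It read 12.83 and 12.84 at 1 week, 13.07 and 13.06 at 2 weeks and 12.84 and 12.99 under GW2580. The 2-week vehicle arrays lay above the other 4, by 0.23 against 1 week (limma adjusted p 0.315). The striated-muscle paralogue Rpl3l read 3.38 to 3.91 and Rpl39l, a paralogue known from the testis, read 3.62 to 3.90, both below the filter on every array.

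Other genes with levels as high read differently. The 33 ribosomal protein genes with a mean of 13 or more had a median of 0.19 and a range of -0.01 to 0.42, and 0 of them were called. The 79 other genes with such a mean had a median of -0.04, and 33 of them were above 0. The 9 tested members under 13 had a median of 0.33, and the 3 called genes were among them.

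Most genes with further probe sets gave the same direction there. There were 100 probe sets for the 46 genes, 90 of them above the filter, and 48 of these, for 21 genes, were not used. At 2 weeks under vehicle 43 of the 48 were above 0, with a median of 0.23. When every probe set of 1 symbol above the filter was a row of its own, a fit added after seeing the data, 443 of 23108 probe sets were called higher (1.92%) and 325 lower (1.41%). Among the members 3 were then called higher, Rps6, Rps3 and Rpl35, all at dim, unused probe sets, and 0 lower. In that fit the adjusted p of Rpl37, Rpl12 and Rps25 was 0.0519, 0.0566 and 0.0612 by limma. These genes have 1 probe set each, with the same differences in both fits, and more rows were adjusted over here.

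The dim probe set of Rps6 read 5.30 and 5.51 at 1 week, 7.33 and 6.89 at 2 weeks and 5.52 and 5.84 under GW2580. Its 2-week vehicle arrays stood far above the other 4, and it rose by 1.71 (SE 0.19, limma adjusted p 0.021). Rps3 encodes a small subunit protein at the mRNA entry that also acts in DNA repair. A dim probe set of Rps3 read 8.97 and 9.36, then 10.51 and 10.40, and 9.40 and 9.87 under GW2580. This set rose by 1.29 (SE 0.20, limma adjusted p 0.030), while the bright set used for the gene went from 13.94 and 13.97 to 14.14 and 14.15, a difference of 0.19. Rpl35, a large subunit protein at the tunnel exit, had a dim set that rose by 0.83 (limma adjusted p 0.045) and a bright one that differed by 0.21. In these 3 genes the called dim set thus differed more than the set used for the gene, but these dim sets were picked by their calls. A second dim set of Rps3 differed by -0.04. Rpl35 was named after its values were seen.

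**Figure D3:**
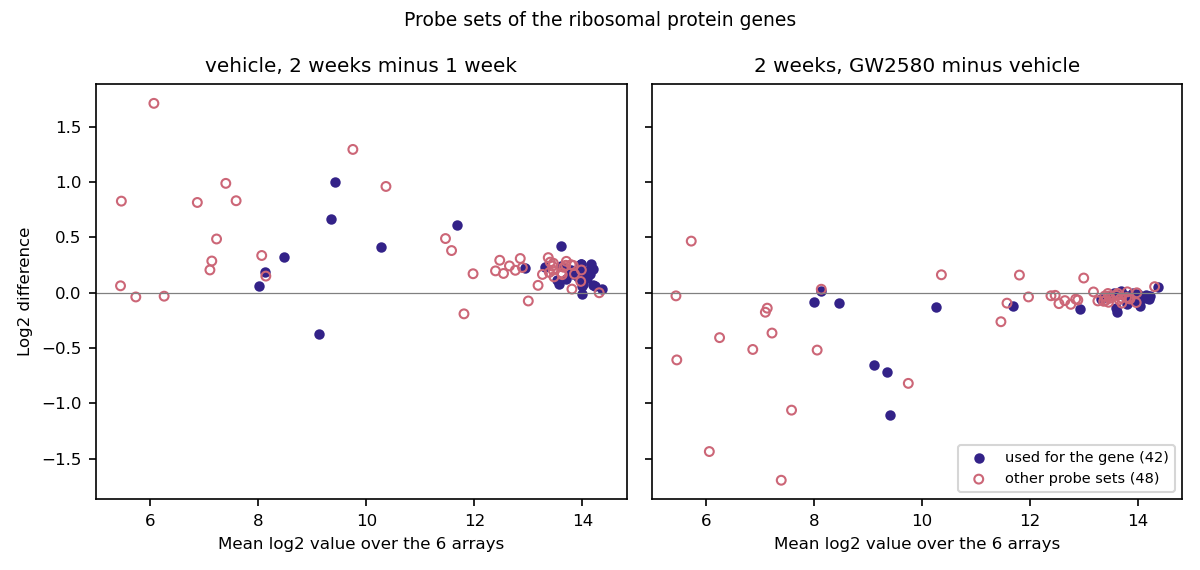
Mean log2 value over the 6 arrays (horizontal axis) against the log2 difference (vertical axis) of the 90 probe sets of ribosomal protein genes above the filter, for 2 weeks minus 1 week under vehicle (left) and GW2580 minus vehicle at 2 weeks (right). Filled points are the 42 sets used for a gene and open points the other 48; the 54 sets with a mean of 13 or more keep within -0.01 to 0.42 on the left and -0.18 to 0.05 on the right, and the dimmer sets spread from -0.37 to 1.71 and from -1.69 to 0.47.

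Under GW2580 at 2 weeks the median of the ribosomal protein genes was close to that of all genes, but a larger share of the members lay below 0. The median difference was -0.05, and that of all genes tested was also -0.05. The difference was above 0 in 3 of the 42 (41.7% of all genes). Of the 33 members with a mean of 13 or more, 2 were above 0, with a median of -0.04. Of the 79 other genes with such a mean, 40 were above 0, with a median of 0.002. In 17 of the 42 both GW2580 arrays lay below both vehicle arrays (40.5%, against 31.5% of all genes), and in 1, Rpl41, both lay above (18.3%). By limma 0 rose (0.0688% of all genes tested) and 0 fell (0.298%). At an unadjusted p under 0.05, 0 were higher (5.36%) and 3 lower (7.14%, against 12.6%). The direction of the median did not turn on any array, but its size did: it was -0.10 without GW2580 replicate 2 and -0.01 without GW2580 replicate 1. Without the latter array 24 of the 42 genes lay below 0, where 39 did with it. Counts without overlap are not compared over these fits, because a lone array overlaps a pair less readily than 2 arrays do.

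Rpl12 and Rps25 had the lowest differences under the inhibitor, on the arrays given above. All 4 arrays at 1 week and under GW2580 lay below both 2-week vehicle arrays for both genes. Rpl12 differed by -1.11 (SE 0.21, limma adjusted p 0.0761) and Rps25 by -0.71 (SE 0.15, limma adjusted p 0.0823), and neither passed. Rpl27a read 8.66 and 8.46 under GW2580, below both vehicle arrays at 2 weeks, and differed by -0.66 (SE 0.25, limma adjusted p 0.225). The time and inhibitor differences share the 2-week vehicle arrays, so a high value there raises the first and lowers the second. For Rpl12 they were 1.00 and -1.11, for Rps25 0.66 and -0.71, and for Rpl37 0.61 and -0.12.

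The other members differed little between GW2580 and vehicle. Rps19, at 13.52 and 13.75 under GW2580, differed by -0.18, Rps27l by -0.15, and Rpl27, a large subunit protein at 13.53 and 13.65, by -0.13. For Rps6 the difference was -0.13 and the GW2580 arrays, at 10.14 and 10.52, overlapped the vehicle arrays. The stalk genes differed by -0.06 (Rplp0) and -0.07 (Rplp2), and Rpl11 and Rpsa by -0.06 and -0.08. At the upper end, Rpl41 read 14.41 and 14.43 against 14.37 on both vehicle arrays, a difference of 0.05. Rps15, a protein near the decoding site, and Rpl14 differed by 0.02 and 0.01. Rps28, Rpl7 and Rpl19 differed by -0.0055, -0.0063 and -0.01. The limma adjusted p of all 42 genes was 0.0761 or more. The SE, which limma draws towards a spread shared by all genes, was 0.12 or more for each gene, larger than most of these differences.

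Dim probe sets also spread widely here. The 20 sets below a mean of 10, of 16 genes, had a median of -0.46 and ran from -1.69 to 0.47, against a median of -0.04 for the 54 sets with a mean of 13 or more. None of the 90 was called, and in that fit 0 of 23108 probe sets were. Rps3 was the only member with sets of opposite sign that both had an unadjusted p under 0.05. The dim set described above differed by -0.82, and a second one, at 5.66 and 5.47 under vehicle and 5.97 and 6.09 under GW2580, by 0.47 (limma adjusted p 0.124 and 0.156). The lowest value was that of a set of Rps24, a small subunit protein, named after its values were seen. It read 8.05 and 8.53 under vehicle and 6.29 and 6.91 under GW2580, a difference of -1.69 (limma adjusted p 0.075).

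Against 1 week, the GW2580 arrays also read slightly higher for most members. The median difference was 0.13, against -0.02 for all genes tested, and 37 of the 42 were above 0 (45.8% of all genes). In 27 both GW2580 arrays lay above both 1-week arrays (64.3%, against 18.8%), and in 2, Rpl27a and Rps2, below (27.9%). By limma 0 rose (0.359%) and 0 fell (0.153%). At an unadjusted p under 0.05 there were 1 higher (6.64%) and 1 lower (10.4%). With every probe set a row of its own, 0 members rose (0.104% of all probe sets) and 0 fell (0.0173%). Without GW2580 replicate 2 the median was 0.07. This comparison shares its arrays with both others, so it is no separate support for either.

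Rpl37 had the highest difference, 0.49 (limma adjusted p 0.109), followed by Rps6 at 0.29, Rps19 and Rps18 at 0.24, Rps27 at 0.23 and Rps14 at 0.21. Rps18 and Rps14 are small subunit proteins of the head and the platform. Rpl27a had the lowest, -1.03 (SE 0.25, limma adjusted p 0.0995), and both GW2580 arrays lay below the other 4. Rpl12 and Rps25 differed by -0.10 and -0.05, and Rps2, Rpl39 and Rpl4 by -0.03, -0.02 and 0.0058. The values of the always-named genes were 0.01 for Rplp0, 0.13 for Rplp2, 0.02 for Rpsa, 0.17 for Rpl11 and 0.08 for Rps27l.

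The members moved with the arrays as well as with the groups. Their median distance from each gene's mean was -0.13 and -0.07 at 1 week, 0.07 and 0.09 at 2 weeks under vehicle, and -0.03 and 0.05 under GW2580. Of the 42 genes 34 had their lowest value on replicate 1 of the 1-week group. On replicate 2 of the 2-week vehicle group 18 had their highest value. Within groups, replicate 2 lay above replicate 1 by a median of 0.07 over the members at 1 week, 0.01 at 2 weeks and 0.10 under GW2580, against 0.02, 0.04 and 0.07 over all genes tested. The gap between the GW2580 arrays was thus larger than the median difference between GW2580 and vehicle.

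Markers of other cells also differed between those arrays. The mean level of the 10 fibroblast and smooth muscle markers with a probe set, 9 of them above the filter, was 7.82 and 7.01 at 1 week, 6.77 and 6.82 at 2 weeks and 7.11 and 6.52 under GW2580. It was thus higher on the array of each pair where the members read lower, at 1 week and under GW2580. The mean of 14 macrophage and monocyte markers, 13 above the filter, was 7.09 and 7.14, 7.05 and 7.19, and 6.69 and 7.17 in the same order. The mean of 7 neutrophil markers, 5 above the filter, was 5.65 and 5.78, 6.003 and 6.26, and 5.52 and 6.21. The mean of 9 lung epithelium markers, all above the filter, was 7.37 and 7.09, 6.97 and 6.97, and 7.12 and 6.27. Single markers were called by limma. Sftpd, a surfactant protein of the alveoli, rose by 0.89 from 1 to 2 weeks under vehicle (adjusted p 0.0251) and fell by 1.12 under GW2580 against vehicle (adjusted p 0.0445), where Sftpa1, another surfactant protein, fell by 1.78 (adjusted p 0.0489). Both were thus high on the 2-week vehicle arrays, where Rpl12 and Rps25 were also high. Ptprc, the leukocyte marker CD45, fell by 0.61 from 1 to 2 weeks under vehicle (adjusted p 0.0387). The 13 tested macrophage and monocyte markers, Ptprc among them, did not move together there: they ran from -0.61 to 0.98, with 6 above 0. Over the same time Scgb1a1, of airway club cells, differed by -3.16 (adjusted p 0.109). Scgb3a2, also a lung epithelium marker, read 8.12 and 6.51 at 1 week, 4.71 and 5.40 at 2 weeks and 7.88 and 5.52 under GW2580. Its 2-week vehicle arrays thus lay below the other 4. The 9 lung epithelium markers did not move together: they ran from -3.16 to 0.89 from 1 to 2 weeks, with 6 above 0. Under GW2580 against vehicle they ran from -2.07 to 1.97, with 3 above 0. The single markers were named after their values were seen. In the 2-week vehicle group, on replicate 2, the probe set at the 3' end of beta-actin exceeded the one at the 5' end by 1.20, against 0.38 to 0.50 on the other 5 arrays. For Gapdh the same difference was 0.92 on that array, against -0.13 to -0.10 on the other 5. The part of other cells and of RNA quality in the members' differences was not tested.

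Other genes of the translation apparatus were read in the same fit, from lists chosen with earlier results of these data known. From 1 to 2 weeks under vehicle, the 8 tested genes of elongation factors and associated proteins had a median of 0.07 and 0 were called. The highest was Eef2, which moves the ribosome along the mRNA, at 0.45 (limma adjusted p 0.0963), followed in p by Eef1b2 at 0.37. The associated genes Eef1akmt1, Eef1e1 and Eef2k differed by -0.26, -0.36 and 0.44. The 30 initiation factor genes had a median of 0.13 with 22 above 0 and 0 called, with Eif3f at 0.47 and Eif4b at 0.48. Of the 12 other genes of TOP transcripts, with a median of 0.12, 1 rose: Pfdn5, a prefoldin subunit, by 0.79 (SE 0.15, limma adjusted p 0.0294). Of 19 genes around mTORC1, with a median of 0.14, 1 rose: Sesn1, a sestrin that restrains mTORC1, by 1.29 (limma adjusted p 0.0183). The 76 mitochondrial ribosomal protein genes had a median of 0.10. Among them 0 rose and 2 fell, Mrpl49 by 0.61 and Mrps25 by 0.55 (limma adjusted p 0.0416 and 0.0443). Of all genes tested, 3.74% were called higher and 2.71% lower, so few calls in a list are not read as a result about it.

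Under GW2580 against vehicle at 2 weeks these lists had lower medians than the ribosomal protein genes in 4 of 5 cases. The medians were -0.01 for elongation factors and associated genes, -0.23 for initiation with 4 of 30 above 0, and -0.09 for other TOP transcripts. They were -0.13 around mTORC1 and -0.16 for the mitochondrial ribosome with 12 of 76 above 0. None of their genes was called (0.0688% of all genes tested were called higher and 0.298% lower). The smallest p in each list belonged to Eef2 (-0.21) and Eef2k (0.25), Eif2b3 (-0.59) and Eif2s2 (-0.32), Cct4 (-0.28) and Nap1l1 (-0.18), Sesn3 (0.81) and Mtor (-0.56), and Mrpl16 (-0.64) and Mrpl1 (-0.49). Against 1 week, GW2580 arrays gave a call in 1 gene of these lists, Pfdn5, which was higher by 0.96 (limma adjusted p 0.0412). In that comparison 0.359% of all genes tested were called higher. There the smallest p in the other lists was that of Eef2k (0.69) and Eef1e1 (-0.36), Eif5 (-0.27) and Eif2s2 (-0.24), Sesn3 (1.097) and Ddit4 (0.96), and Mrpl18 (-0.54) and Mrpl1 (-0.45), with 0 called.

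**Figure D4:**
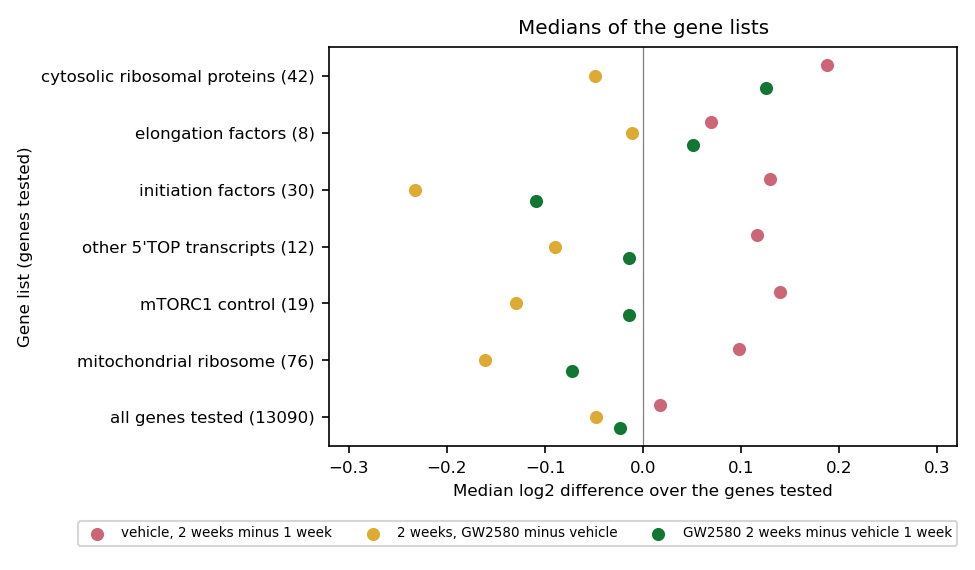
Median log2 difference (horizontal axis) over the tested genes of the cytosolic ribosomal proteins, 5 other lists and all genes (vertical axis, number tested in brackets), with a colour for each of the 3 comparisons. The elongation factor list includes associated genes. The ribosomal protein genes have the highest median of the lists at 2 weeks against 1 week under vehicle (0.19) and for GW2580 against 1 week (0.13), and lie at the median of all genes (-0.05) for GW2580 against vehicle.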

How the data were processed

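The authors deposited log2 values of 45101 probe sets for the 6 arrays. These come from RMA, per the submitters' processing notes. RMA corrects background, quantile-normalises and summarises probes. No version is given in the sources used here. Of 45037 probe sets that are not controls, 34945 had 1 symbol in the platform annotation and were used, with the brightest kept per gene. Genes under the 40th percentile were left out. Group means were fitted over all 6 arrays with limma 3.58.1 (lmFit and eBayes) in R 4.3.3, and differences carry limma's SE. P-values were adjusted over the 13090 genes. All 46 members matched RefSeq by gene ID, with 0 symbols changed. Precision is limited by the number of arrays, which have no read depth.

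The members and lists were chosen with earlier results of these data known. Named were genes called, the 6 highest and 6 lowest differences in each comparison, 13 genes in every comparison as far as measured, members whose probe sets had opposite signs at an unadjusted p under 0.05, and up to 4 called genes of each list or its 2 of smallest p. Replicate numbers share nothing stated in the labels: deviations of same-numbered arrays correlated at 0.00, 0.29 and 0.01 between groups. The fit was tested on simulated data. Alternatives changed the scaling, the filter, the probe set per gene, the eBayes options, the replicate block and the arrays.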

Additional observations from a re-analysis of the deposited data

How the results depend on the processing

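The median difference from 1 to 2 weeks under vehicle ran from 0.15 to 0.21 over all alternatives, and was 0.15 after scaling to a common 75th percentile, where the median of all genes was -0.02. For GW2580 against vehicle the median ran from -0.10 to -0.011, and against 1 week from 0.068 to 0.16, with arrays left out in turn. Calls depended more on the choices, and the shares of all genes called under each choice are not given here. Without probe sets with a suffix, 5 genes rose at 2 weeks (Rpl12, Rpl35, Rpl37, Rps25 and Rps3) and 1, Rps24, fell under GW2580. With trend and robust eBayes, 4 rose at 2 weeks, Rps19 (0.42) added, and 1 fell under GW2580 (Rpl12). With the mean of a gene's probe sets, 4 rose, Rps6 (1.06) added. Leaving out single arrays gave 0 to 3 calls at 2 weeks. With the replicate number as a block, 3 genes rose at 2 weeks, 2 fell under GW2580 (Rpl12, adjusted p 0.0248, and Rps25, 0.0497, by limma) and 1 fell against 1 week (Rpl27a, 0.031); same-numbered arrays share only a number, and the block changed no other count of calls. In alternatives chosen after seeing the data, 24 to 40 members lay below 0 under GW2580 as arrays were left out. In these fits 18 to 38 were lower without overlap, where 17 of 42 were with all arrays. A lone array overlaps a pair less readily than 2 arrays do, which by itself raises such counts. Shares of all genes in these fits are not given here, so neither range is read as a result about the members. Of the named genes, 33 values changed sign, all of them uncalled. With a common 75th percentile the GW2580 minus vehicle difference was 0.014 for Rpl19, 0.020 for Rpl7 and 0.021 for Rps28, the 2-week minus 1-week difference of Rpl41 was -0.0065, and GW2580 minus 1 week was -0.0037 for Rpl4. Rpl41 under GW2580 was -0.011 with the mean of its probe sets and -0.18 without suffixed sets. With arrays left out in turn, the lowest and highest GW2580 minus vehicle differences were -0.14 and 0.014 for Rpl11, -0.24 and 0.27 for Rpl14, -0.063 and 0.040 for Rpl19, -0.053 and 0.040 for Rpl7, -0.061 and 0.096 for Rps15, -0.035 and 0.024 for Rps28, and -0.32 and 0.066 for Rps6. From 1 to 2 weeks they were -0.12 and 0.24 for Rpl39 and -0.0060 and 0.064 for Rpl41. For GW2580 minus 1 week they were -0.40 and 0.19 for Rpl12, -0.20 and 0.16 for Rpl39, -0.034 and 0.046 for Rpl4, -0.0088 and 0.032 for Rplp0, -0.19 and 0.091 for Rps25, and -0.028 and 0.070 for Rpsa. The cause of these changes was not tested. With 2 arrays a group and 3 residual degrees of freedom, the smallest member difference called as reported was 0.61.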

Other observations

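Probe sets annotated with several symbols, at least 1 of them a ribosomal protein gene's, were left out of all counts above because their reading cannot be given to a single gene. There were 110, of which 105 lay above the filter. At 2 weeks under vehicle 98 of the 105 were above 0, with a median of 0.18. Without overlap 91 were higher and 2 lower (31.5% and 25.2% of all genes tested). Under GW2580 against vehicle 9 were above 0, with a median of -0.07. Without overlap 60 were lower and 1 higher (31.5% and 18.3% of all genes tested). Against 1 week under GW2580 91 were above 0, with a median of 0.12. Without overlap 66 were higher and 5 lower (18.8% and 27.9% of all genes tested).

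Related genes that the symbol rule did not take were chosen after their values were seen. Rps3a1, a small subunit protein gene with an additional number in its symbol, differed by 0.12 at 2 weeks under vehicle and by -0.09 under GW2580. Rpl22l1, the paralogue of Rpl22, differed by 0.01 and 0.16, and Rpl7l1, a paralogue of Rpl7 in ribosome assembly, by -0.12 and 0.01. None of the 3 was called by limma, with adjusted p-values of 0.539 to 0.976. Fau, whose product is a fusion of a ubiquitin-like protein with a small subunit protein, differed by 0.34 at 2 weeks under vehicle (limma adjusted p 0.165).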
